A study of Mus musculus with 12 samples.

Results

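The genes described here are 10 components of IL-4 signalling, with roles in sensing the cytokine and in limiting the response. They are the receptor chains Il4ra, Il2rg and Il13ra1, the Janus kinases Jak1, Jak3 and Tyk2, the transcription factor Stat6, the adaptor Irs2 and the feedback inhibitors Socs1 and Cish. They were chosen by name and role from the 38887 genes in the tables, and all 10 were measured. All 10 were also among the 12846 genes that passed the filter on low counts. The RNA-Seq data comprised 12 libraries of bone marrow-derived macrophages (BMMs) from 3 WT and 3 IGF2BP2 KO mice aged 3 to 4 months. Bone marrow cells were differentiated with 50 ng/ml M-CSF, the growth factor of macrophages, which stayed in the medium of all groups. M2 macrophages received IL-4 at 20 ng/ml over 8 h, whereas M0 macrophages did not, so that the groups WT M0, WT M2, KO M0 and KO M2 held 3 libraries each. In KO mice part of Igf2bp2, which encodes an RNA-binding protein, was flanked by loxP sites, and Cre was expressed from the Lyz2 locus, which is active in myeloid cells. Control animals were littermates without floxed alleles, of which some carried Cre and others did not.

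IL-4 binds the chain IL-4Rα, encoded by Il4ra, which then pairs with a second chain. With the common gamma chain, encoded by Il2rg, it forms the type I receptor of haematopoietic cells, and with IL-13Rα1, encoded by Il13ra1, it forms the type II receptor, which also binds IL-13. JAK1 is bound to IL-4Rα, JAK3 to the common gamma chain and TYK2 to IL-13Rα1. The kinases phosphorylate the receptor, STAT6 is recruited, phosphorylated and moves to the nucleus, and IRS2 connects the receptor to phosphatidylinositol 3-kinase. SOCS1 and CIS, the product of Cish, are induced by cytokines through STAT proteins and inhibit signalling at the receptor.

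Total counts per library were 24942666 to 29832430 in WT M0, 20011792 to 22744704 in WT M2, 26568719 to 37054582 in KO M0 and 27347077 to 39632770 in KO M2, so that KO M2 libraries were all deeper than WT M2 libraries. All 9 macrophage markers were expressed, with a summed level between 5670 and 6630 CPM (counts scaled to library size after TMM normalization). Of 8 T cell markers none reached 1 CPM in any library and Cd3d, Cd3e, Cd3g, Cd8a and Trac were at 0 in all of them. This is of interest for Il2rg and Jak3, which lymphocytes also express. Of 6 B cell markers 1 reached 1 CPM, Cd79b with 4.76 to 8.85 CPM, and the list summed to 4.81 to 9.08 CPM, while Ms4a1 and Cd79a stayed at or below 0.0657 CPM. Of 6 markers of NK and innate lymphoid cells 1 reached 1 CPM, Gata3 with means of 0.2 and 0.223 CPM in WT M0 and KO M0 and 0.978 and 1.04 CPM in WT M2 and KO M2, and Eomes and Tbx21 were at 0 in all libraries. This list summed to 0.156 to 0.296 CPM in M0 and 0.802 to 1.4 CPM in M2, and the 6 dendritic cell markers, of which 1 reached 1 CPM, to 0.259 to 0.623 CPM in M0 and 1.64 to 2.16 CPM in M2. The dendritic cell marker that reached 1 CPM was Zbtb46. Its means were 0.278 and 0.297 CPM in WT M0 and KO M0, and 1.63 and 1.6 CPM in WT M2 and KO M2. Flt3, Ccr7, Xcr1, Clec9a and Cd209a stayed at or below 0.195 CPM. The part of the innate lymphoid and dendritic cell lists in the changes with IL-4 was not tested. The 6 markers of mast cells and basophils, of which 2 were at 0 in all libraries, summed to 1.17 to 2.32 CPM in WT and 0.719 to 1.88 CPM in KO. Markers of stromal cells, of which 4 of 7 reached 1 CPM and 0 were at 0 throughout, summed to 30.6 to 61.2 CPM in WT and 8.38 to 31.1 CPM in KO, and 7 markers of neutrophils and their progenitors to 2.45 to 8.25 CPM in WT and 1.58 to 3 CPM in KO. Of the latter, Ltf had means of 5.51 and 3.45 CPM in WT M0 and WT M2, and 1.31 and 1.73 CPM in KO M0 and KO M2. Igf2bp2 itself was at 118, 99.7 and 76.5 CPM in WT M0 and at 95.9, 84.9 and 91.6 CPM in KO M0, and at 221, 233 and 178 CPM in WT M2 and 146, 129 and 129 CPM in KO M2. Its KO to WT log2 fold change was -0.11 in M0 (edgeR adjusted p = 0.656) and -0.65 in M2 (edgeR adjusted p = 0.0285). As reads from exons outside the deleted part are included, these values do not check the genotype labels.

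The levels of the 10 genes were compared first, as TPM, an abundance scaled to library size and gene length. In WT M0 macrophages the order of mean TPM was Il2rg (189), Stat6 (154), Jak1 (78.6), Il4ra (33.2), Tyk2 (25), Jak3 (18.5), Socs1 (3.34), Il13ra1 (1.32), Irs2 (0.893) and Cish (0.373). Il2rg and Stat6 were thus among the abundant transcripts, with higher TPM than 93.5% and 91.7% of the genes tested, whereas Il13ra1, Irs2 and Cish lay above only 13%, 10% and 4.4%. All neighbours in this order were separated in their 3 libraries, except Il13ra1 and Irs2, which overlapped. The transcript of the second chain of the type I receptor was therefore far more abundant than that of the type II receptor. Within a library, Il2rg TPM was 122, 124 and 204 times that of Il13ra1 in WT M0 and 179, 219 and 226 times in KO M0. After IL-4 the factor was 631, 388 and 550 in WT M2 and 793, 508 and 480 in KO M2, without overlap with M0. Jak1 was the most abundant of the 3 kinases in all groups, with TPM 4.24 ± 0.38 times that of Jak3 in WT M0 and 6.43 ± 0.768 times in WT M2 (mean ± SD, n = 3). In M2 the feedback genes joined the upper part of the order. Mean TPM of Socs1 was 112 in WT M2 and 128 in KO M2, where it overlapped with Stat6 (143 and 128), and Cish reached 37.3 and 37.2, next to Il4ra with 41.4 and 44. The effective length of Cish in the tables varied from 755.5 to 3244 nucleotides between libraries, compared with a spread of at most 5.77% for each of the other members, so that its TPM moved with this length and its CPM is given below.

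**Figure D1:**
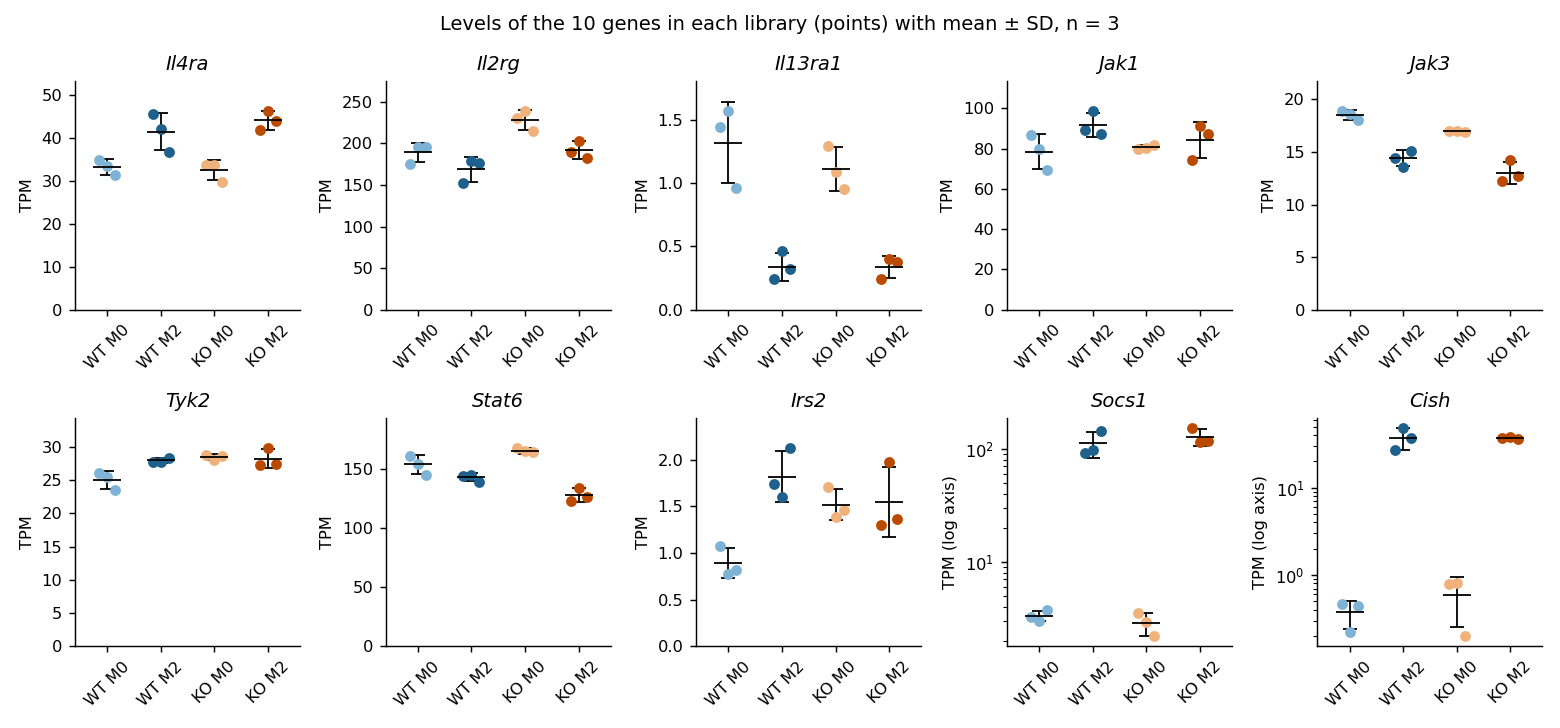
TPM (vertical axis) of each of the 10 genes in the 4 groups; points are libraries, black bars the mean ± SD (n = 3), and the axes of Socs1 and Cish are logarithmic. Socs1 and Cish were separated by more than an order of magnitude between M0 and M2, Il13ra1 was lower in M2, Irs2 was lowest in WT M0, and the other genes changed less.

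The first comparison was the effect of IL-4 in WT macrophages. In cultures measured in bulk, fewer cells that express a gene cannot be told apart from less RNA per cell. Of the 10 genes 8 changed, and the sizes ranged from a 106-fold rise of Cish to a fall of Il13ra1 to 0.267 of its M0 level. The feedback genes rose most, Il4ra, Irs2, Jak1 and Tyk2 rose, Il13ra1 and Jak3 fell, and for Il2rg and Stat6 no change was called. IL-4 changed 50% of all genes tested (24.9% higher and 25.1% lower), against 6 members higher and 2 lower. With limma on log2(TPM + 1), 39.9% of the called genes were higher in WT M2, against 49.8% with edgeR. The median log2 fold change was 0.26 over the members and -0.01 over all genes. In 8 of 10 members the 3 M0 and 3 M2 libraries did not overlap, which was also the case for 55.2% of all genes.

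Cish was detected with 12, 12 and 14 reads in WT M0, which correspond to 0.388, 0.394 and 0.545 CPM, and was at 38.5, 50.2 and 52.2 CPM in WT M2. All M2 libraries were far above all M0 libraries, with a log2 fold change of 6.73 (SE 0.17, 95% interval 6.36 to 7.11, edgeR adjusted p = 1.28e-11). Socs1 was at 2.01, 1.87 and 2.45 CPM in WT M0 and 60.2, 65.3 and 95.2 CPM in WT M2 (log2 fold change 5.13, SE 0.23, edgeR adjusted p = 2.2e-09). Both genes rose in KO macrophages as well. Cish was at 0.331, 0.451 and 0.332 CPM in KO M0 and 52.1, 48 and 45.5 CPM in KO M2, and Socs1 at 2.2, 1.86 and 1.41 CPM and 107, 75.5 and 77.2 CPM, respectively. The log2 fold changes in KO were 7 (SE 0.17) for Cish and 5.58 (SE 0.23) for Socs1. The difference between the responses of KO and WT was 0.26 (95% interval -0.53 to 1.06) for Cish and 0.45 (95% interval -0.35 to 1.26) for Socs1, and neither passed the test (edgeR adjusted p = 0.754 and 0.571).

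As the 2 feedback genes showed the strongest changes of the members, the bases before their transcription starts are shown (RefSeq, GRCm38.p6, from 100 bases before the start, given 5′ to 3′ on the strand of the gene). The windows are chr9:107296559-107296678 on the plus strand for Cish, which runs to base 20 of the transcript as RefSeq annotates it, and chr16:10785537-10785636 on the minus strand for Socs1. Capitals mark the motif TTCNNNGAA, the palindrome that dimers of STAT proteins bind.
Cish: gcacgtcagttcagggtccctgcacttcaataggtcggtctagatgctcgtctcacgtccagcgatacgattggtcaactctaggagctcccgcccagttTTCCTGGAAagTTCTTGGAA
Socs1: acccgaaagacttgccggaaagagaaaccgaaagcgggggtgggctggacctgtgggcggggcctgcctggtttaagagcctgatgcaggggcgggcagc
Cish held 2 copies, at bases 1 to 9 and 12 to 20 counted from the RefSeq start, and the nearest start in GENCODE lies 51 bases from that start. A RefSeq window from 250 bases before to 50 bases after the start was present for all 10 members. TTCNNNGAA was found in the window of Cish only, and the form with 4 instead of 3 bases between TTC and GAA, the spacing preferred by STAT6, in 0 of the 10. Both motifs read the same on either strand, and the matches in Cish do not overlap. Among 32851 such windows 8.3% held the first and 6.95% the second motif.

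Among the receptor chains, Il4ra and Il13ra1 changed in opposite directions. Il4ra was at 94.1, 91.7 and 90.6 CPM in WT M0 and 131, 122 and 106 CPM in WT M2, an increase by 0.38 on the log2 scale (SE 0.07, edgeR adjusted p = 0.000604). In KO it was at 92.9, 94.2 and 83.5 CPM in M0 and 128, 133 and 128 CPM in M2 (log2 fold change 0.52, SE 0.07, edgeR adjusted p = 3.76e-05). In each genotype every M2 library was above every M0 library. Il13ra1 had 87, 95 and 52 reads in WT M0 and 11, 19 and 13 reads in WT M2, which correspond to 2.81, 3.12 and 2.03 CPM and to 0.5, 0.979 and 0.665 CPM. The log2 fold change was -1.9 (SE 0.28, 95% interval -2.5 to -1.3, edgeR adjusted p = 8.96e-05). In KO, Il13ra1 fell from 2.57, 2.2 and 1.94 CPM to 0.527, 0.828 and 0.808 CPM (log2 fold change -1.6, SE 0.26, edgeR adjusted p = 0.00018). Its groups did not overlap, although the few reads left wide intervals. Il2rg was at 141, 157 and 169 CPM in WT M0 and 134, 153 and 151 CPM in WT M2, where the ranges overlapped (log2 fold change -0.1, 95% interval -0.26 to 0.07, edgeR adjusted p = 0.316).

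The kinases showed small changes. Jak3 was at 38.4, 38.8 and 39.4 CPM in WT M0 and 31.3, 29.2 and 32.7 CPM in WT M2, and at 35.9, 35.7 and 35.3 CPM in KO M0 and 28.7, 30.3 and 28.5 CPM in KO M2. It fell without overlap in both genotypes, with a log2 fold change of -0.32 in WT (SE 0.05, edgeR adjusted p = 0.000179) and -0.29 in KO (SE 0.05, edgeR adjusted p = 0.000321). Jak1 rose in WT by 0.3 on the log2 scale (SE 0.07, edgeR adjusted p = 0.00258), from 218, 205 and 189 CPM to 246, 268 and 237 CPM. Limma on log2(TPM + 1) did not call this change of Jak1 (0.23, adjusted p = 0.0568, against adjusted p of 0.000122 to 0.0571 over all alternatives). Tyk2 was at 63.8, 63.3 and 61.5 CPM in WT M0 and 72.6, 73.4 and 74.5 CPM in WT M2. All its M2 libraries were above all M0 libraries (log2 fold change 0.23, SE 0.04, edgeR adjusted p = 0.000644).

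In KO macrophages IL-4 changed 6 of the 10 genes, 3 higher (Il4ra, Socs1, Cish) and 3 lower (Il13ra1, Jak3, Stat6). IL-4 changed 52.8% of all genes in KO, 26.8% higher and 26% lower, and for 63.4% of all genes as for 8 of 10 members the 3 M0 and 3 M2 libraries did not overlap. With limma on log2(TPM + 1), 39.2% of the called genes were higher in KO M2, against 50.7% with edgeR. Stat6 was at 306, 314 and 309 CPM in KO M0 and 262, 258 and 248 CPM in KO M2, a log2 fold change of -0.28 (SE 0.04, 95% interval -0.36 to -0.19, edgeR adjusted p = 7.6e-05). The 3 KO M2 values were all below the 3 KO M0 values. For Jak1 the log2 fold change in KO was 0.15 (SE 0.07, edgeR adjusted p = 0.077), from 204, 211 and 213 CPM to 214, 247 and 236 CPM, and for Il2rg it was -0.15 (SE 0.07, edgeR adjusted p = 0.106), from 190, 199 and 179 CPM to 179, 174 and 159 CPM. With the mouse as a replicate block both passed the test, Jak1 with 0.15 (edgeR adjusted p = 0.0262) and Il2rg with -0.15 (edgeR adjusted p = 0.00899). Jak1 also passed without KO M2 replicate 1 (0.21, edgeR adjusted p = 0.0211), and Il2rg with limma on log2(TPM + 1) (-0.25, adjusted p = 0.0139). Over all alternatives the adjusted p lay between 0.0211 and 0.639 for Jak1 and between 0.00899 and 0.335 for Il2rg. Tyk2 was at 71.9, 70.9 and 72.9 CPM in KO M0 and 75.9, 78 and 72.6 CPM in KO M2 (log2 fold change 0.07, edgeR adjusted p = 0.173), higher in M2 in 2 of 3 mice.

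Next, the responses of the genotypes were compared directly. Stat6 was the only member for which the difference between the IL-4 responses passed the test. It was at 286, 280 and 289 CPM in WT M0 and 280, 281 and 267 CPM in WT M2, which overlapped. Within mice the log2 change was -0.03, 0.01 and -0.12 in WT and -0.22, -0.29 and -0.32 in KO. The response of KO minus that of WT was -0.23 (SE 0.06, 95% interval -0.35 to -0.11, edgeR adjusted p = 0.048), close to the threshold of 0.05. It was 1 of 10 members, against 3.24% of all genes called in either direction and 2.13% with a lower response in KO. The call was lost in 9 of 12 fits that left out 1 library, while the value lay between -0.25 and -0.21 in all 12. Without WT M0 replicate 1 or 2 the adjusted p was 0.0531 or 0.106, without WT M2 replicate 1 or 2 it was 0.0956 or 0.129, without KO M0 replicate 1, 2 or 3 it was 0.0778, 0.121 or 0.112, and without KO M2 replicate 2 or 3 it was 0.0838 or 0.129 (edgeR).

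Irs2 showed the largest difference in size, without passing the test. It was at 2.3, 1.68 and 1.87 CPM in WT M0 and 3.95, 3.66 and 4.86 CPM in WT M2, with 48 to 71 and 71 to 95 reads. All WT M2 libraries were above all WT M0 libraries (log2 fold change 1.09, SE 0.19, edgeR adjusted p = 0.000445). In KO it was at 3.71, 3.05 and 3.24 CPM in M0 and at 3.13, 4.48 and 3.12 CPM in M2, where the ranges overlapped (log2 fold change 0.11, SE 0.18, edgeR adjusted p = 0.634). Irs2 rose in 3 of 3 WT mice and in 1 of 3 KO mice. The response of KO minus that of WT was -0.98 (SE 0.26, 95% interval -1.55 to -0.41, edgeR adjusted p = 0.0662). It passed with DESeq2 (-0.98, adjusted p = 0.0259), without WT M0 replicate 1 (-1.12, edgeR adjusted p = 0.0395) and without KO M2 replicate 2 (-1.18, edgeR adjusted p = 0.0348), with adjusted p of 0.0259 to 0.158 over all alternatives. For Tyk2 the difference was -0.15 (SE 0.06, edgeR adjusted p = 0.189), and for Il4ra, Il2rg, Il13ra1, Jak1 and Jak3 it lay between -0.15 and 0.3, with edgeR adjusted p of at least 0.455.

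**Figure D2:**
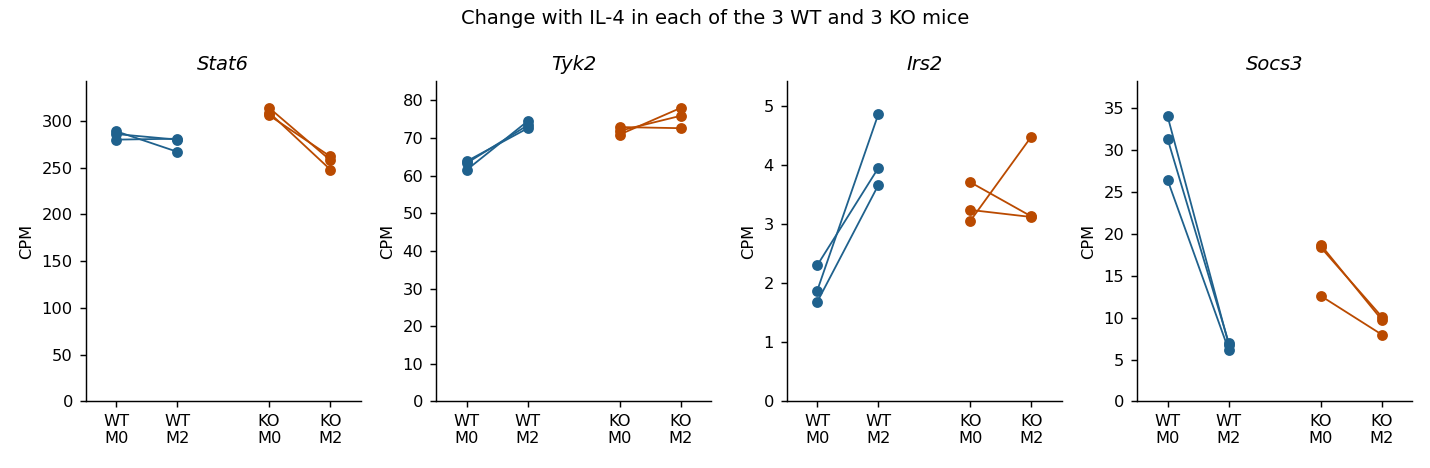
CPM (vertical axis, from 0) of Stat6, Tyk2, Irs2 and Socs3 in M0 and M2; each line joins the libraries with the same number in WT (blue) and KO (orange). Stat6 fell in 3 of 3 KO mice, Irs2 rose in 3 of 3 WT mice and in 1 of 3 KO mice, and Socs3 fell in all 6, from a lower M0 level in KO.

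The third question was whether the genes differed between KO and WT at the same treatment. In M0, 3 of 10 genes were higher in KO and 0 lower, against 9.78% of all genes called in either direction and 5.5% higher in KO. Without overlap between the genotypes were 5 of 10 members and 31.1% of all genes. Irs2 was 1.7-fold higher in KO M0 (log2 fold change 0.77, SE 0.19, edgeR adjusted p = 0.0252), with all KO libraries above all WT libraries. Il2rg was at 190, 199 and 179 CPM in KO against 141, 157 and 169 CPM in WT (log2 fold change 0.28, SE 0.07, edgeR adjusted p = 0.0331), and Tyk2 at 71.9, 70.9 and 72.9 CPM against 63.8, 63.3 and 61.5 CPM (log2 fold change 0.19, SE 0.04, edgeR adjusted p = 0.0133). Both were higher in each KO library than in each WT library. For Stat6 the log2 fold change was 0.12 (SE 0.04, edgeR adjusted p = 0.0745) and for Jak3 it was -0.12 (SE 0.05, edgeR adjusted p = 0.136), also without overlap. The M0 differences and the IL-4 responses share the M0 libraries, so that the values of Irs2 and Tyk2 in these comparisons are not separate observations.

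The M0 calls did not all hold when 1 library was left out. The fold changes then lay between 0.68 and 0.91 for Irs2, 0.22 and 0.35 for Il2rg and 0.18 and 0.21 for Tyk2. Irs2 lost its call without WT M0 replicate 2 (0.68, edgeR adjusted p = 0.105) and without KO M0 replicate 1, 2 or 3 (0.69, 0.83 and 0.79, edgeR adjusted p = 0.0791, 0.0552 and 0.0688), and Il2rg without WT M0 replicate 1 or 2 (0.22 and 0.3, edgeR adjusted p = 0.0898 and 0.0846) and without KO M0 replicate 1, 2 or 3 (0.28, 0.24 and 0.32, edgeR adjusted p = 0.0755, 0.132 and 0.0543). Tyk2 lost it without KO M0 replicate 3 (0.18, edgeR adjusted p = 0.0612), and limma on log2(TPM + 1) called neither Tyk2 (adjusted p = 0.0927) nor Irs2 (adjusted p = 0.0693). In M0, stromal markers summed to 30.6 to 54.8 CPM in WT and 8.38 to 31.1 CPM in KO. Without overlap were neutrophil and progenitor markers (2.96 to 8.25 CPM in WT M0, 1.58 to 2.24 CPM in KO M0). The same held for mast cell and basophil markers (1.17 to 2 and 0.719 to 1.14 CPM) and T cell markers (1.1 to 1.32 and 0.913 to 1.09 CPM). The macrophage, dendritic, B cell and innate lymphoid sums overlapped. The part of these lists in the M0 differences was not tested.

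In M2 no member passed the edgeR test between KO and WT, with 2 at an unadjusted p under 0.05 (Il2rg and Stat6) and 0 of 10 called by DESeq2 or limma. Of all genes 2.68% were called. Il2rg was at 179, 174 and 159 CPM in KO and 134, 153 and 151 CPM in WT (log2 fold change 0.23, 95% interval 0.06 to 0.39, edgeR adjusted p = 0.123), and Stat6 at 262, 258 and 248 CPM in KO and 280, 281 and 267 CPM in WT (log2 fold change -0.11, 95% interval -0.19 to -0.02, edgeR adjusted p = 0.162). They were the 2 of 10 members without overlap, compared with 24.8% of all genes. The intervals limit how large a difference could have been missed. They were -0.04 to 0.26 for Il4ra, -0.25 to 0.04 for Jak1, -0.17 to 0.26 for Cish and -0.13 to 0.59 for Socs1, and were wider for Il13ra1, with -0.61 to 0.71.

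**Figure D3:**
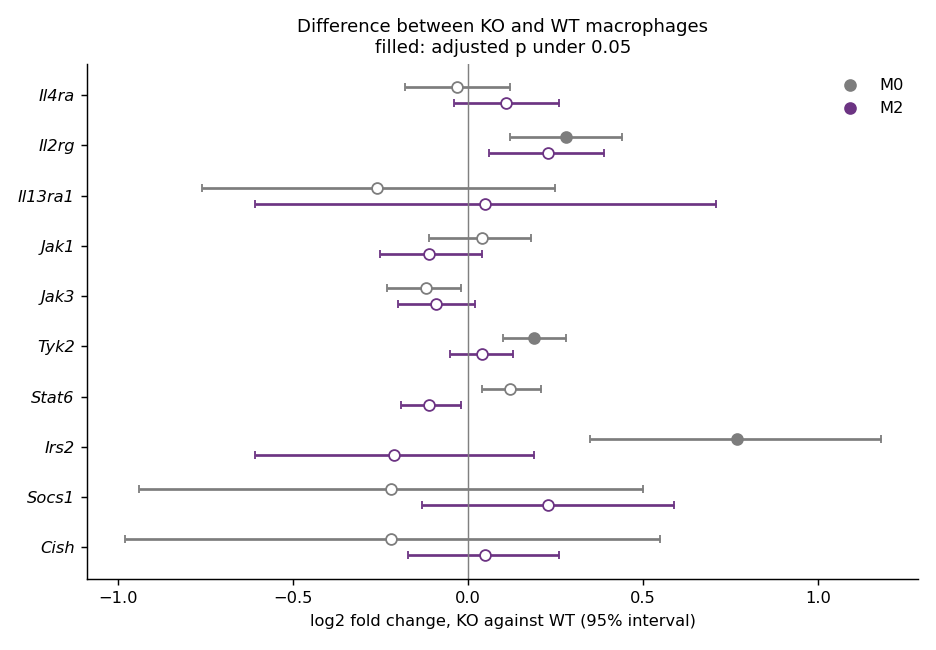
log2 fold change of KO against WT (horizontal axis) with its 95% interval for each of the 10 genes in M0 (grey) and M2 (purple); filled points passed the test. Irs2, Il2rg and Tyk2 were higher in KO M0, and no gene passed in M2.

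Further genes of the pathway were taken from a list of 45, of which 38 passed the filter. In WT, IL-4 raised 19 and lowered 7 of the 38 (median log2 fold change 0.2), and in KO it raised 14 and lowered 9 (median 0.06). Among all genes tested, 24.9% were higher and 25.1% lower in WT, and 26.8% higher and 26% lower in KO, so that the 23 called in KO are to be read against 52.8% of all genes and the 26 in WT against 50%. The ligand genes Il4 and Il13 had at most 2 and 0 reads in a library, respectively. The decoy receptor gene Il13ra2 was at 0 reads in all M0 libraries and had at most 5 in M2, and Il2ra, Il2rb, Il9r and Irs1 also did not pass the filter. Of the listed IRS genes Irs1 and Irs2, only Irs2 could thus be tested.

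The strongest changes lay in the SOCS family, whose members inhibit cytokine receptors. Socs2 rose from 0.194, 0.197 and 0.351 CPM in WT M0 to 18.5, 21.3 and 16.8 CPM in WT M2 (log2 fold change 6.26, edgeR adjusted p = 4.99e-10) and in KO by 6.1 (edgeR adjusted p = 3.76e-10), the same direction as Socs1 and Cish. Socs3, which acts mainly on receptors of the gp130 type, went in the opposite direction. It was at 26.4, 34 and 31.3 CPM in WT M0 and 6.09, 6.75 and 6.95 CPM in WT M2, and at 18.4, 18.7 and 12.6 CPM in KO M0 and 10.1, 9.73 and 7.97 CPM in KO M2. It fell with log2 fold changes of -2.21 (SE 0.16, edgeR adjusted p = 1.84e-07) in WT and -0.84 (SE 0.15, edgeR adjusted p = 0.000448) in KO. The difference between these responses was 1.38 (edgeR adjusted p = 0.00755) and passed in all 12 fits without 1 library. In M0 Socs3 was lower in KO (log2 fold change -0.89, edgeR adjusted p = 0.00306), with which the difference between the responses shares its M0 libraries. Socs5 (0.74 in WT and 0.71 in KO) and Socs6 (0.57 and 0.41) rose, whereas Socs4 (-0.05 and -0.04) and Socs7 (-0.14 and 0.03) did not pass the test.

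Of the kinases, Jak2, which serves receptors of growth hormone and of other cytokines, rose more than the 3 members. Its log2 fold change was 1.3 in WT (edgeR adjusted p = 4.32e-08) and 1.58 in KO (edgeR adjusted p = 7.27e-09), from 51.9, 47.2 and 39.8 CPM to 117, 118 and 106 CPM in WT. In KO M0 it was lower than in WT M0, at 33.2, 33.9 and 31.4 CPM (log2 fold change -0.5, edgeR adjusted p = 0.00354). Of the other STAT genes shown, Stat2, Stat3, Stat4, Stat5a and Stat5b changed with IL-4 in WT. Stat4, a mediator of IL-12 signalling, fell most among them, with log2 fold changes of -1.83 in WT and -1.49 in KO. Stat5b fell with -0.24 and -0.34, whereas Stat5a rose by 0.27 and 0.36. Stat3 rose by 0.2 in WT and had 0.08 (edgeR adjusted p = 0.194) in KO. Limma on log2(TPM + 1) called neither the rise of Stat3 in WT (0.15, adjusted p = 0.179) nor that of Stat2 (0.15, adjusted p = 0.11). Stat2, a mediator of type I interferon signalling, also showed a difference between the responses, as its log2 fold change was 0.21 in WT and -0.16 in KO (difference -0.38, edgeR adjusted p = 0.016). This difference was not called by limma on log2(TPM + 1) (-0.38, adjusted p = 0.0962) or without KO M0 replicate 3 (-0.36, edgeR adjusted p = 0.0533), and the fall in KO not without KO M0 replicate 1 or 3 (-0.13 and -0.15, edgeR adjusted p = 0.0738 and 0.0621). With the mouse as a replicate block the difference between the responses was called for 6 instead of 2 genes of the pathway list.

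**Figure D4:**
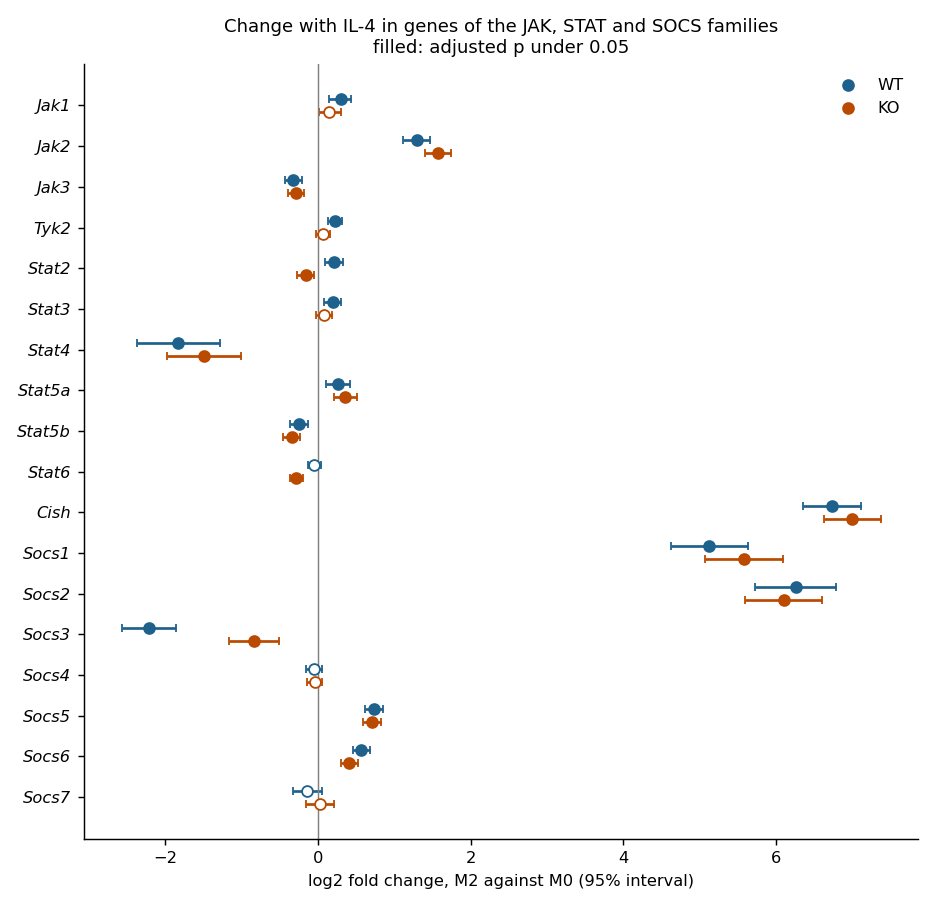
log2 fold change with IL-4 (horizontal axis) and its 95% interval in WT (blue) and KO (orange) for genes of the JAK, STAT and SOCS families; filled points passed the test. Cish, Socs1 and Socs2 rose by more than 5 on the log2 scale, Socs3 and Stat4 fell, and the JAK genes other than Jak2 stayed within 0.32 of zero.

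Of the 4 tested genes of receptors that share chains with or resemble the IL-4 receptor, 2 rose in WT, Il21r by 2.1 and Il7r by 0.48, and in KO Il21r by 2.11 and Crlf2 by 0.2, the last with a call in 2 of 6 fits without 1 library. IL-21 receptor and IL-7 receptor both use the common gamma chain. Il7r was higher in KO M0 (0.46, edgeR adjusted p = 0.0128), as was Il21r (0.46, edgeR adjusted p = 0.0326), which was also the 1 gene of the list called in M2 (0.47, edgeR adjusted p = 0.0477). The M2 call of Il21r was lost in each of the 6 fits without 1 library (edgeR adjusted p from 0.0913 to 0.124). In the adaptor and PI3K group 7 of 9 rose and 1 fell in WT, and 6 rose and 1 fell in KO, against 24.9% of all genes higher and 25.1% lower in WT and 26.8% and 26% in KO. Limma on log2(TPM + 1) did not call Grb2 (0.12, adjusted p = 0.086) and Akt2 (0.17, adjusted p = 0.069) in WT or Grb2 (0.07, adjusted p = 0.326) and Shc1 (0.11, adjusted p = 0.255) in KO. Shc1 in KO was also not called without KO M0 replicate 1 or 3 (0.15 and 0.19, edgeR adjusted p = 0.0854 and 0.052) or KO M2 replicate 1 (0.15, edgeR adjusted p = 0.0746). Genes of this group with a called rise in WT and KO included those of the docking proteins Gab2 (1.22 and 0.77) and Dok2 (1.16 and 1.14). Pik3r1, for the regulatory subunit of PI3K, also rose in both (0.62 and 0.44), whereas Akt1 fell (-0.26 in both). Of the 6 phosphatase genes 2 rose and 1 fell in WT, and 1 rose and 2 fell in KO, which is near the 50% and 52.8% of all genes called. Among them were Ptpn2 (0.48 in WT and 0.64 in KO), which encodes a phosphatase of JAK and STAT proteins, and Ptpn6, which encodes SHP-1 (-0.37 and -0.47). Of 6 cofactors and repressors of STAT6, Pias1 rose by 0.14 and Parp14 fell (-0.29) in WT, each with a call in 2 of 6 fits without 1 library, and Parp14 fell (-0.59) in KO. In KO M0, 8 of the 38 genes of the list were higher than in WT and 2 lower (Jak2 and Socs3), against 5.5% of all genes higher and 4.27% lower. Among the higher ones were Il7r, Il21r, Stat2, Pik3cd, Ptpn1, Inpp5k and Ncoa1, with log2 fold changes of 0.2 to 0.46. When 1 library was left out, Ptpn1 was called in 6 of 6 fits, Stat2 and Pik3cd in 5, Il7r in 4, Il21r and Ncoa1 in 1 and Inpp5k in 0. Limma on log2(TPM + 1) called neither Ptpn1 (0.15, adjusted p = 0.274) nor Stat2 (0.23, adjusted p = 0.0847), Pik3cd (0.28, adjusted p = 0.0686), Inpp5k (0.23, adjusted p = 0.106) or Ncoa1 (0.32, adjusted p = 0.161) in M0.

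As a check of the treatment, 11 of 12 known targets of IL-4 in macrophages passed the filter and all 11 rose in both genotypes, with a median log2 fold change of 3.74 in WT and 4.15 in KO. Ccl17 had at most 8 reads in a library and was not tested. Of the 11, Mrc1 (3.27 in WT and 3.96 in KO) was the 1 gene with a call for the difference between the responses (0.69, edgeR adjusted p = 0.0233). It was also lower in KO M0 (-0.86, edgeR adjusted p = 0.000522), which shares its libraries with that difference. The call for the difference was lost with limma on log2(TPM + 1) (0.64, adjusted p = 0.0592) and in 6 of 12 fits without 1 library. These were without WT M0 replicate 2 (0.62, edgeR adjusted p = 0.0689), WT M2 replicate 2 (0.72, 0.0532), KO M0 replicate 1 or 2 (0.62, 0.066 and 0.71, 0.054) and KO M2 replicate 2 or 3 (0.66, 0.0533 and 0.67, 0.0602), each with the fold change and then the adjusted p.

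For the 4 members with a change of at least 1 on the log2 scale in WT, the genes with the most similar pattern were searched over the 12 libraries, by Pearson correlation of log2 CPM, leaving out genes whose mean was under 5 CPM. The libraries share treatment and genotype, so these values are descriptive. Cish was most similar to Inpp5a (r = 0.999), Auh (0.999) and Nek6 (0.998), and Socs1 to Auh (0.998), Retnla (0.997) and Rab3il1 (0.997). Mean Inpp5a was 15.9 CPM in WT M0 and 73.1 CPM in WT M2, and mean Retnla 0.0499 and 102 CPM. For Il13ra1 they were Mcph1 (0.986), Gpd2 (0.984) and Lgalsl (0.981), of which Gpd2 was at 49.7 CPM in WT M0 and 28.7 CPM in WT M2. For Irs2 they were Trak1 (0.955), Pacs2 (0.936) and Tmem214 (0.934). Trak1 was at 53.7 CPM in WT M0, 69.9 in WT M2, 64.9 in KO M0 and 66.6 in KO M2, the same order of low WT M0 and 3 higher groups as Irs2.

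The members lie, on GRCm38, at the positions that GENCODE M21 gives. Il4ra is found at chr7:125552120-125579474, Il2rg at chrX:101264378-101268255 and Il13ra1 at chrX:36112110-36171259. The kinase genes are Jak1 at chr4:101152367-101265282, Jak3 at chr8:71676296-71690575 and Tyk2 at chr9:21104068-21131243. Stat6 lies at chr10:127642986-127660957, Irs2 at chr8:10984681-11008458, Socs1 at chr16:10782240-10785536 and Cish at chr9:107296026-107302784. Several members share their locus with other genes. On the same strand these are Gm20489 for Il2rg, Gm12785 for Jak1 and Insl3 for Jak3, so that reads may be divided between them. Il13ra1 and Socs1 overlap no annotated gene. Genes on the opposite strand overlap Il4ra, Jak1, Tyk2, Stat6, Irs2 and Cish, and whether reads were counted by strand is not given in the sources used here.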

How the data were processed

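The authors deposited a table per library with expected counts of genes (estimated read numbers) and TPM, made from single-end reads of 75 nt (poly(A)-selected, directional libraries) aligned to GRCm38 with the Grape-nf pipeline. FastQC 0.11.2 and DESeq2 1.40.2 are named in the submitters' notes. The deposited gene lengths were used for scale only, and the authors' DESeq2 tables (mean counts, fold changes and p-values of their comparisons) only for symbols.

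Expected counts were rounded and fitted with edgeR 4.0.16 in R 4.3.3 (filterByExpr, TMM, quasi-likelihood F test, 4 groups, 12 libraries, 12846 genes, biological coefficient of variation 8.08%). Adjusted p-values (Benjamini-Hochberg) cover all genes tested, and a gene was called under 0.05. An exact permutation test of 3 against 3 libraries cannot go below 0.1. All 10 members are named, list genes where they passed the test, and genes of the JAK, STAT and SOCS families. The values of some list genes are not reported here, although list counts and sums include them. Members, lists and tests were chosen with earlier results of these data known.

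Libraries with the same number in M0 and M2 varied together (correlations of deviations 0.331, 0.103 and 0.364 in WT, 0.166, 0.16 and 0.209 in KO), as libraries of 1 mouse. The main fit had no term for the mouse. The replicate block added this term for the IL-4 responses and their difference. Alternatives were RLE factors, other filters, DESeq2 1.42.0, limma 3.58.1 on log2(TPM + 1) and log2(TPM + 0.1), only the 6 libraries compared, a replicate block and leaving out each library. The code was tested on simulated data. Coordinates are from GENCODE M21 and RefSeq (GRCm38).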

Additional observations from a re-analysis of the deposited data

Results flagged for a closer look

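Stat6 was flagged because its change with IL-4 differed between the genotypes by the test of the difference itself. The response of KO minus that of WT was -0.23 on the log2 scale (SE 0.06, edgeR adjusted p = 0.048). The log2 change within mice was -0.03, 0.01 and -0.12 in WT, and lower in 3 of 3 KO mice (-0.22, -0.29 and -0.32). With the mouse as a replicate block it was -0.23 (edgeR adjusted p = 0.0359), and over all alternatives the adjusted p lay between 0.000613 and 0.129.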

How the results depend on the processing

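The 8 members called for IL-4 in WT, the 6 in KO and the 0 between genotypes in M2 were within 1.5 times these counts in all alternatives. With limma on log2(TPM + 1) and on log2(TPM + 0.1), 1 and 1 of the 3 members were called in M0, 5 and 5 of the 10 genes of the pathway list in M0, 0 and 0 of its 1 gene in M2, 0 and 0 of the 1 member for the difference between the responses and 1 and 1 of its 2 list genes. For the difference, DESeq2 called 2 members and 4 list genes, and 0 members were called without a filter on low counts. With only the 6 libraries of M0, 6 list genes were called. Without 1 library, 0 to 3 members and 4 to 8 list genes were called in M0, 0 list genes in M2, and 0 to 1 members and 1 to 5 list genes for the difference.

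Some fold changes that were not called changed their sign. With the 2 limma fits, Tyk2 in KO had -0.01 and -0.01, Cish in M0 0.2 and 0.44, and the differences were -0.01 and -0.02 for Jak3 and -0.16 and -0.4 for Cish. Without 1 library the values were -0.09 to 0.21 for Irs2 with IL-4 in KO, -0.06 to 0.02 for Il4ra and -0.01 to 0.09 for Jak1 in M0, -0.16 to 0.34 for Il13ra1 and -0.08 to 0.13 for Cish in M2, and -0.12 to 0.01 for Il2rg and -0.01 to 0.07 for Jak3 in the difference. The effective length of Cish, which enters TPM, differed between libraries, and its part in the limma values was not tested. DESeq2 called Stat6 in M0 (0.13, adjusted p = 0.00982). Over all alternatives, 693 values of the members' fold changes kept their sign and their side of the threshold, 29 lost a call, 10 gained one and 18 changed sign.

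With the mouse as a replicate block, 6 list genes were called for the difference, and Il2rg (-0.15) and Jak1 (0.15) passed with IL-4 in KO, and no other call of a member changed. Libraries that share a number across the genotypes did not vary together (correlations of deviations -0.0684 to 0.0403), and a block by that number called 0 list genes in M2 and 1322 against 1256 of all genes in M0 and 413 against 344 in M2. For all genes, limma called 752 and 700 in M0, 70 and 57 in M2 and 113 and 113 for the difference (416 with edgeR), DESeq2 713 in M2 and 816 for the difference, the 6 libraries of M2 alone 165, and the block by mouse 1002 for the difference. Depth limits Cish and Socs2 in M0 and Il13ra1 in M2, with at most 32 reads in a library.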
